A study of Arabidopsis thaliana with 8 samples.

Results

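The genes described here are the alternative oxidases and alternative NADH dehydrogenases of *Arabidopsis thaliana*, together with *UPOX*, whose name stands for up-regulated by oxidative stress. The 10 genes were found by symbol or synonym among the 33028 rows of each count table: the oxidases *AOX1A*, *AOX1C*, *AOX1D* and *AOX2*, the dehydrogenases *NDA1*, *NDA2*, *NDB2*, *NDB3* and *NDB4*, and *UPOX* (AT2G21640), which the tables list under a clone name. Their transcripts were counted by QuantSeq, which sequences the 3′ end of polyadenylated RNA, in 8 libraries of whole, untreated Col-0 seedlings. The libraries form 4 groups of 2: wild type (WT), *HRE1α* OXs and *HRE1β* OXs, which overexpress the splicing variants of the ethylene response factor gene *HRE1*, and *AtRH17* OXs, which overexpress a DEAD-box RNA helicase gene. The labels put all seedlings at 14 days after germination at 22 °C in short days (8 h light, 16 h dark), whereas the paper speaks of younger seedlings. The *HRE1β* OXs carried the full open reading frame in a binary vector and were used as homozygous kanamycin-selected lines, the *HRE1α* OXs came from an earlier study, and the promoters, the number of independent lines behind these libraries and the making of the *AtRH17* OXs are not given in the sources used here. No source says that the libraries of a group came from separate cultures, so that the p-values below measure the spread between these libraries, which may be technical.

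Plant mitochondria pass electrons to oxygen by more than the cytochrome pathway. An alternative oxidase takes electrons from ubiquinol and reduces oxygen to water without complexes III and IV, and alternative NAD(P)H dehydrogenases feed ubiquinone without the proton pumping of complex I, from the matrix side (NDA) or from the outer face of the inner membrane (NDB). *AOX1A* is the best known target of mitochondrial retrograde signalling in *Arabidopsis*, in which impaired mitochondria change the transcription of nuclear genes, and *NDB2* and *UPOX* are known to rise with it under many stresses.

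Library totals lay between 25657217 and 30606058 counts, and 3 counts, taken here as the floor of detection in a library, were worth 0.098 to 0.117 counts per 1e6 counts (CPM). Levels below are CPM scaled with TMM factors. *HRE1* stood at 49.8 and 38.1 CPM in WT and at 169 and 195 CPM in *HRE1α* OXs. In the *HRE1β* OX-labelled libraries it was at 33.9 and 34.3 CPM, a fall of 0.37 on the log2 scale (SE 0.117, edgeR adjusted p = 0.0263). *AtRH17* was at 9.21 and 8.27 CPM in WT and at 5.07 and 5.05 CPM in the *AtRH17* OX-labelled libraries, which fell by 0.79 on the log2 scale (SE 0.183, edgeR adjusted p = 0.00121). A transgene that ends in vector sequence could give few or no 3′ reads on its gene, but the sources used here do not give the 3′ ends of these transgenes. These counts may thus check only transcripts with the native 3′ end, which was not tested. Both the *HRE1β* OX and the *AtRH17* OX groups are called by their labels. The study measured the *HRE1α* and *HRE1β* transcripts in its lines by quantitative RT-PCR, whose values are not used here. All 10 photosynthesis genes listed as leaf markers and all 10 root markers were detected in every library. Against WT, 4, 9 and 10 of the 10 leaf markers rose in the order *HRE1α* OXs, label *HRE1β* OX and label *AtRH17* OX. They were led by *LHCA1* (log2 0.52, 0.99 and 1.25) and *LHCB1.1*. Of all tested genes, 1.57%, 11.2% and 15.3% rose in these comparisons. The summed level of the leaf markers was 21058 and 24209 CPM in WT, in *HRE1α* OXs 26110 to 27088 CPM, 31697 to 34573 CPM in the *HRE1β* OX-labelled libraries and 34992 to 36023 CPM in those labelled *AtRH17* OX. The summed root markers ranged from 2056 to 2306 CPM in the first 3 groups. They were 3657 and 4334 CPM in the *AtRH17* OX-labelled libraries, where *PYK10* was higher than in WT and *PRP3* was lower. Most of each sum was *PYK10*, with a mean of 2004 CPM in WT and 3828 CPM in the *AtRH17* OX-labelled libraries. Of the 10 root markers, 3 rose and 3 fell there against WT, with a median log2 difference of -0.08. Of all tested genes, 15.3% rose and 15.5% fell there. The 11 seed storage and seed maturation markers together reached 100 and 28.6 CPM in the *HRE1β* OX-labelled libraries. In any of the others they reached at most 0.995 CPM, and 5 to 8 of the 11 were at 0. Of these *OLEO2*, *PER1* and *OLEO1* had the lowest adjusted p. The part of these tissue and seed transcripts in the results below was not tested, and in such whole-seedling RNA fewer cells of a type and less RNA per cell cannot be told apart.

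In WT seedlings the pathway was carried by few of its genes. QuantSeq yields about 1 fragment per transcript whatever its length, so that CPM can be set side by side between genes. *NDA1*, the internal dehydrogenase, led with 28.5 ± 6.21 CPM (SD, n = 2 libraries here and below). *NDB2* followed with 5.82 ± 1.46 CPM and *AOX1A* with 4.82 ± 0.187 CPM, and their ranges overlapped. *UPOX* (2.5 ± 0.523 CPM) and *NDA2* (2.35 ± 0.0898 CPM) came next, also with overlapping ranges. The 5 remaining genes stayed under 1 CPM: *AOX1C* reached 16 counts in 1 WT library, while *AOX1D*, *NDB3*, *NDB4* and *AOX2* had at most 2 counts in either. *AOX1A* made up 95% of all oxidase CPM in WT replicate 1 (95% exact binomial interval 89.9 to 98%) and 89% in replicate 2 (83.1 to 93.3%), counting *AOX1B*, its neighbour on the chromosome, among the oxidases. These intervals cover counting error only.

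Within each family, genes at very different levels encode related proteins. Translated from the TAIR10.1 annotation, AOX1A has 354 residues and shares 77.9% of its aligned residues with AOX1C, 65.4% with AOX1D and 64.8% with AOX2. NDA1 (510 residues) and NDA2 (508 residues) are 83.7% identical, and NDB2 (619 residues) is 85.8% identical to NDB3 and 67.6% to NDB4. Multiply aligned reads were counted by the authors, but no stretch of 75 bases from the last 500 transcript bases of any of the 10 genes occurs elsewhere in the genome, so that exact copies cannot have exchanged 3′ reads between them. *NDB3* alone overlaps another gene, by 101 bases on the same strand.

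*AOX1A* (AT3G22370; chromosome 3, 7906521 to 7908746, forward strand, TAIR10.1, 4 exons) was higher in the *HRE1β* OX- and *AtRH17* OX-labelled libraries. It had 132 and 145 counts in WT, or 4.69 and 4.96 CPM, and 98 and 148 counts in *HRE1α* OXs, or 3.74 and 5.33 CPM. In the *HRE1β* OX-labelled libraries it had 318 and 654 counts, or 11.8 and 21.2 CPM, and in those labelled *AtRH17* OX 471 and 367 counts, or 16.6 and 14.9 CPM. All 4 of these libraries were above all 4 of the others, and WT and *HRE1α* OXs overlapped. The rise over WT was 3.42-fold in the former (log2 1.77, SE 0.232, edgeR adjusted p = 1.2e-05) and 3.27-fold in the latter (log2 1.71, SE 0.233, edgeR adjusted p = 1.3e-05). The difference of *HRE1α* OXs from WT was -0.09 on the log2 scale (SE 0.252, edgeR adjusted p = 0.931). The *HRE1β* OX-labelled libraries differed from each other in *AOX1A* more than those of any other group. Without replicate 2 the log2 difference from WT was 1.30 and without replicate 1 it was 2.13, each past the threshold. Their seed marker sum went the other way, with 100 CPM in replicate 1 and 28.6 CPM in replicate 2.

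**Figure D1:**
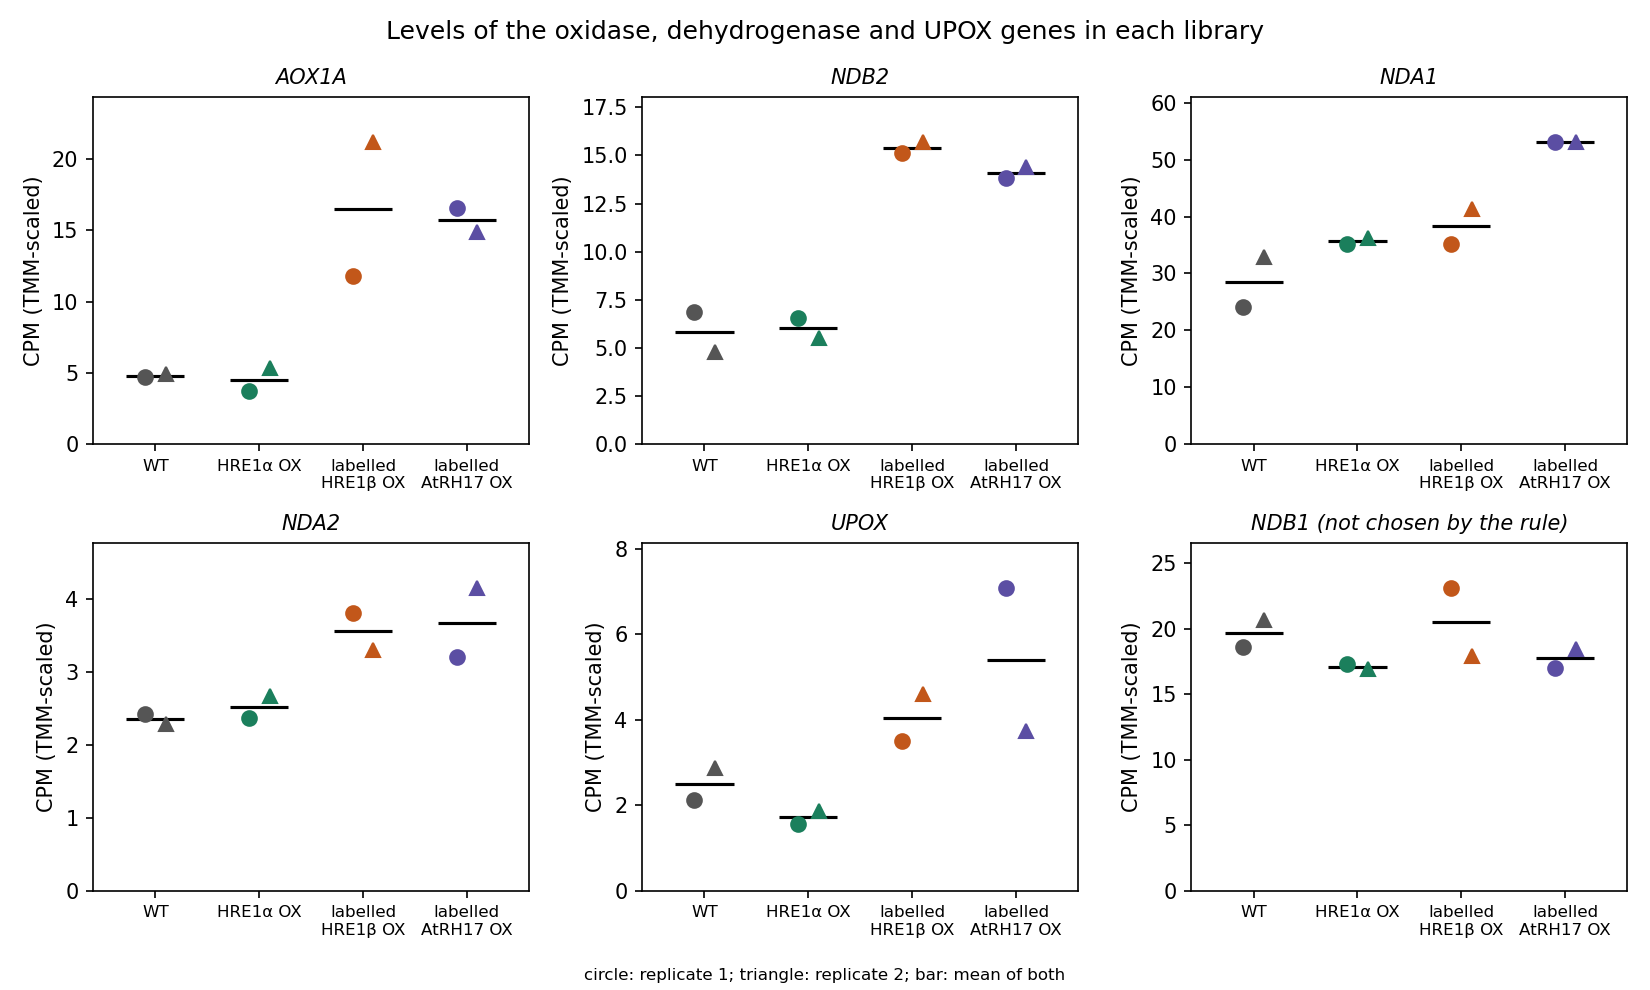
TMM-scaled CPM (vertical axes, each from 0) of 5 of the 10 genes and of *NDB1*, the external dehydrogenase outside the rule, in the 8 libraries (circle: replicate 1, triangle: replicate 2, bar: mean). *AOX1A* lies between 3.74 and 5.33 CPM in WT and *HRE1α* OXs and between 11.8 and 21.2 CPM in the other groups, and *NDB1* between 16.9 and 23.1 CPM throughout.

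The other oxidases stayed scarce in every group. *AOX1C*, an isoform known more for developmental than for stress expression, had 3 and 16 counts in WT, 1 and 0 in *HRE1α* OXs, 4 and 10 in the *HRE1β* OX-labelled libraries and 14 and 14 in those labelled *AtRH17* OX. It was the only one of them that passed the filter on low counts. It did so through the 14 counts in each library labelled *AtRH17* OX, together with the 16 in 1 WT library. Its tests are thus no independent support for a higher level in the *AtRH17* OX-labelled libraries. Its 28 reads in the *AtRH17* OX-labelled libraries against 1 read in *HRE1α* OXs gave a ratio of 28.5 (95% counting interval 4.71 to 1165) and passed the test (edgeR adjusted p = 0.0124), a call lost without *HRE1α* OX replicate 2 (adjusted p = 0.124), without *AtRH17* OX replicate 2 (adjusted p = 0.055) and on quantile-normalized values (adjusted p = 0.082). Against WT no group passed for *AOX1C*. *AOX1D*, whose transcript is known to rise where *AOX1A* is missing, had 1 and 2 counts in WT, 8 and 0 in *HRE1α* OXs, 2 and 20 in the *HRE1β* OX-labelled libraries and 2 and 6 in those labelled *AtRH17* OX. Its highest count was thus in replicate 2 of the *HRE1β* OX-labelled libraries, the library with the most *AOX1A*, and in a fit with no filter on low counts the difference of that group from WT did not pass (edgeR adjusted p = 0.219). *AOX2*, the oxidase known from seeds, had 0 counts in both WT libraries, 0 and 2 in *HRE1α* OXs, 1 and 1 in those labelled *AtRH17* OX, and 8 and 0 in those labelled *HRE1β* OX. The library with those 8 counts is the one with the highest sum of seed markers, 100 CPM.

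Among the external dehydrogenases, *NDB2* (AT4G05020; chromosome 4, 2572427 to 2576599, forward strand) rose with *AOX1A*. It is an NADH dehydrogenase of the outer face of the inner membrane. It had 193 and 140 counts in WT (6.86 and 4.79 CPM), 172 and 153 in *HRE1α* OXs (6.57 and 5.51 CPM), 408 and 485 in the *HRE1β* OX-labelled libraries (15.1 and 15.7 CPM) and 391 and 354 in those labelled *AtRH17* OX (13.8 and 14.4 CPM). The same 4 libraries were again above the other 4, here with close replicates. The rise over WT was 2.65-fold in the *HRE1β* OX-labelled libraries (log2 1.40, SE 0.176, edgeR adjusted p = 3.8e-07) and 2.42-fold in those labelled *AtRH17* OX (log2 1.28, SE 0.177, edgeR adjusted p = 1.3e-06), and the *HRE1α* OXs differed from WT by 0.05 (SE 0.186, edgeR adjusted p = 0.941). The ratio of *NDB2* to *AOX1A* stayed within 0.81 and -0.43 on the log2 scale in the 8 libraries, with WT at 0.55 and -0.05.

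*NDB3* and *NDB4* were at the limit of detection. *NDB3*, the closest relative of *NDB2*, had at most 3 counts in any library. *NDB4* had 1 and 0 counts in WT and 0 and 0 in *HRE1α* OXs, but 8 and 8 in the *HRE1β* OX-labelled libraries and 22 and 6 in those labelled *AtRH17* OX. All 4 libraries of the last 2 groups were thus above the floor of 3 counts and none of the first 2 was. The ratio of summed reads to WT was 15.9 (95% counting interval 2.46 to 665) and 30.3 (5.02 to 1241), each against 1 read. *NDB4* did not pass the filter on low counts, and in the fit without that filter its difference from WT passed in the *AtRH17* OX-labelled libraries (edgeR adjusted p = 0.0249) and not in those labelled *HRE1β* OX (edgeR adjusted p = 0.12), and the difference between these groups did not pass either (edgeR adjusted p = 0.76).

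**Figure D2:**
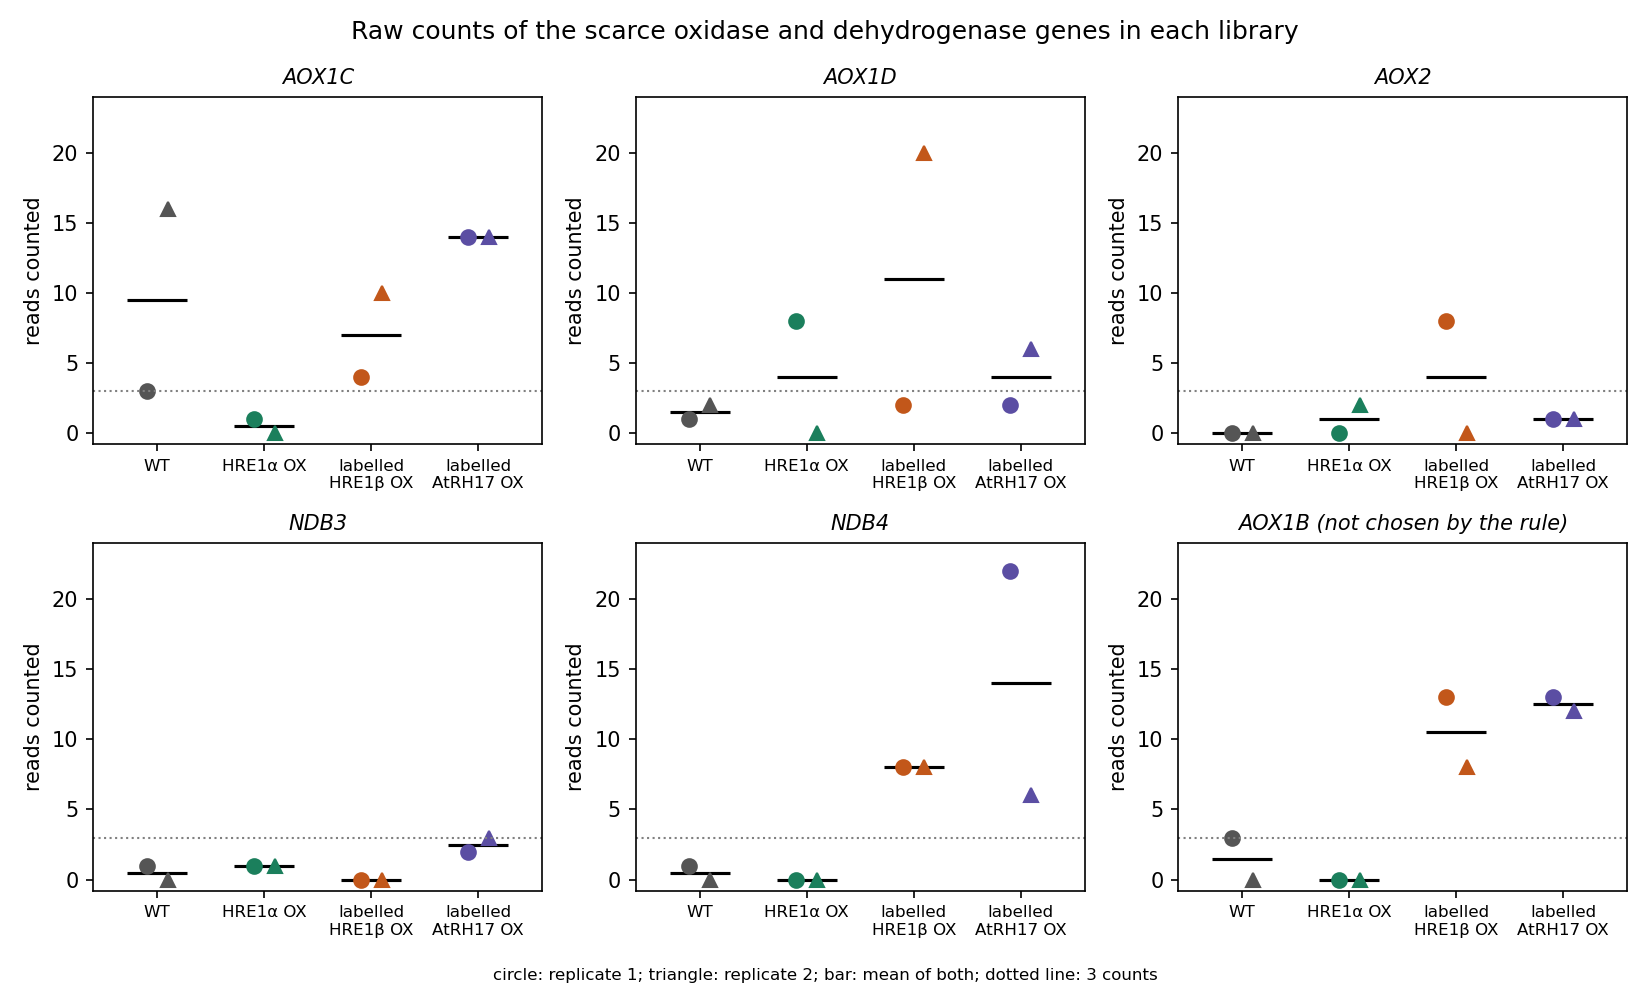
Raw counts (vertical axes) of the scarce oxidase and dehydrogenase genes, *AOX1B* included, in each library (circle: replicate 1, triangle: replicate 2, bar: mean, dotted line: 3 counts). *NDB4* has 0 or 1 count in the 4 libraries of WT and *HRE1α* OXs and 6 to 22 counts in the other 4, while the 20 counts of *AOX1D* and the 8 counts of *AOX2* stem from single libraries.

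The internal dehydrogenases moved less. *NDA1* (AT1G07180), known as a light-regulated gene, had 24.1 and 32.9 CPM in WT, 35.2 and 36.3 in *HRE1α* OXs, 35.2 and 41.3 CPM in the *HRE1β* OX-labelled libraries and 53.1 and 53.1 CPM in those labelled *AtRH17* OX. No library of the other groups overlapped WT. The rise over WT was 1.87-fold in the *AtRH17* OX-labelled libraries (log2 0.90, SE 0.119, edgeR adjusted p = 9.4e-07) and 1.34-fold in those labelled *HRE1β* OX (log2 0.43, SE 0.12, edgeR adjusted p = 0.0094). The latter call was lost without WT replicate 1 (log2 0.22, adjusted p = 0.194) and without *HRE1β* OX replicate 2 (log2 0.32, adjusted p = 0.159). In *HRE1α* OXs the log2 difference was 0.33 (SE 0.12, edgeR adjusted p = 0.161), and it passed only without WT replicate 2 (log2 0.57, adjusted p = 0.00178). The leaf marker sum, quoted above, ordered the groups in the same way as *NDA1*, and its part in this was not tested. *NDA2* (AT2G29990) had 2.29 to 2.67 CPM in the 4 libraries of WT and *HRE1α* OXs and 3.21 to 4.15 CPM in the other 4. These ranges did not overlap, but neither difference from WT passed (log2 0.59, SE 0.287, edgeR adjusted p = 0.143 for the label *HRE1β* OX; log2 0.64, SE 0.288, edgeR adjusted p = 0.0939 for *AtRH17* OX).

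*UPOX* encodes a small mitochondrial protein of 104 residues. Its levels were 2.13 and 2.87 CPM in WT, 1.57 and 1.87 in *HRE1α* OXs, 3.51 and 4.6 CPM in the *HRE1β* OX-labelled libraries, and 7.08 and 3.74 CPM in those labelled *AtRH17* OX. The groups did not overlap with WT, and *HRE1α* OXs lay below it. The rise in the *AtRH17* OX-labelled libraries was 2.17-fold (log2 1.12, SE 0.302, edgeR adjusted p = 0.00484) and rested on replicate 1, without which the log2 difference was 0.59 (adjusted p = 0.27). The *HRE1β* OX-labelled libraries differed from WT by 0.70 (SE 0.304, edgeR adjusted p = 0.0995) and *HRE1α* OXs by -0.54 (SE 0.327, edgeR adjusted p = 0.498).

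**Figure D3:**
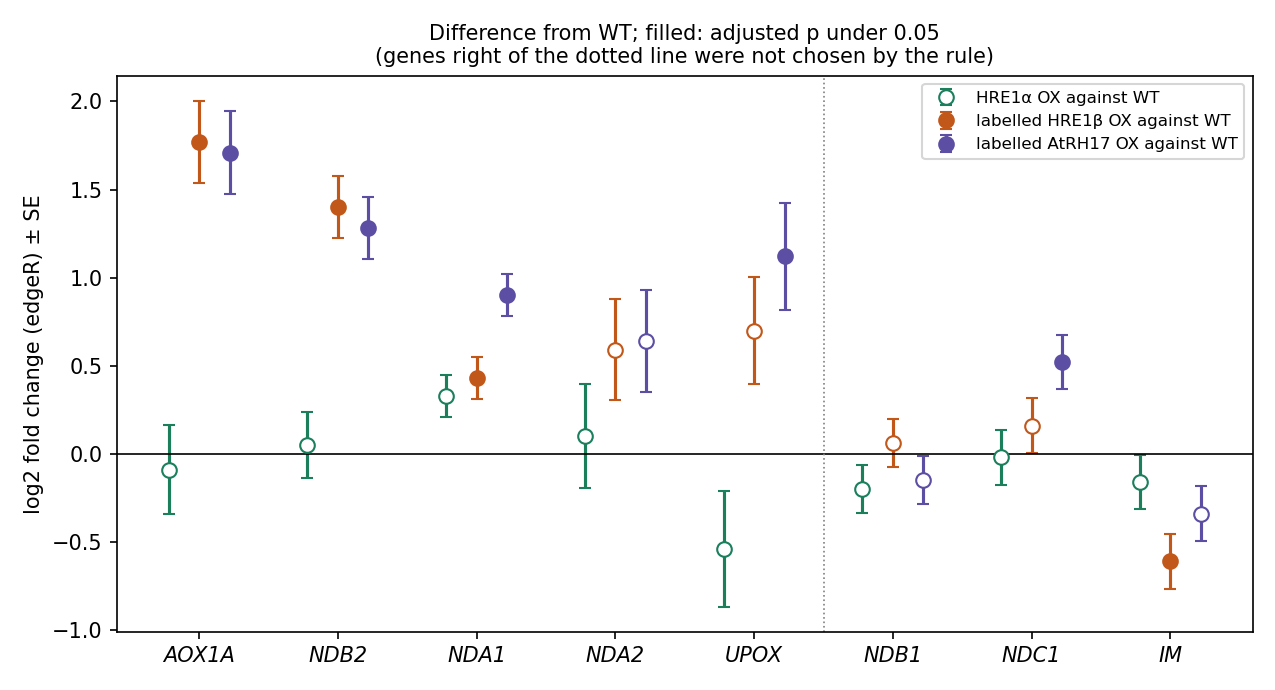
edgeR log2 fold change from WT with its SE (vertical axis) for the 5 genes of the rule with over 1 CPM in WT and, right of the dotted line, 3 family genes outside it (filled symbols: adjusted p under 0.05). *AOX1A* and *NDB2* lie between 1.28 and 1.77 in both groups where they rose and at -0.09 and 0.05 in *HRE1α* OXs.

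Counted together, 6 of the 10 genes passed the filter on low counts, so that the following counts cover these 6. Against WT, 0 of 6 were called in *HRE1α* OXs by edgeR or DESeq2 with an adjusted p under 0.05, where 1.57% of all 22602 tested genes were called higher and 1.80% lower, and *AOX1C* and *NDA1* had an unadjusted edgeR p under 0.05. In the *HRE1β* OX-labelled libraries, 3 of 6 were higher (*AOX1A*, *NDB2* and *NDA1*) and 0 lower, where 11.2% of all tested genes were higher and 11.6% lower. In those labelled *AtRH17* OX, 4 of 6 were higher (*AOX1A*, *NDB2*, *NDA1* and *UPOX*) and 0 lower, where 15.3% of all tested genes were higher and 15.5% lower. The median log2 difference of the 6 was -0.02, 0.65 and 1.01 in that order, where the median of all tested genes lay between -0.01 and 0.00. The WT libraries enter all 3 comparisons.

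Between the lines, *AOX1A*, *NDB2* and *UPOX* set the *HRE1β* OX-labelled libraries apart from *HRE1α* OXs, where the study asked how the splicing variants differ. *AOX1A* was 3.63-fold higher there (log2 1.86, SE 0.235, edgeR adjusted p = 1.5e-05), *NDB2* 2.55-fold (log2 1.35, SE 0.176, edgeR adjusted p = 1.5e-06) and *UPOX* 2.36-fold (log2 1.24, SE 0.317, edgeR adjusted p = 0.00608), while *NDA1* differed by 0.10 (SE 0.119, edgeR adjusted p = 0.658). Over all tested genes 8.86% were higher in this comparison and 7.87% lower. The call of *UPOX* was lost without *HRE1α* OX replicate 1 (adjusted p = 0.0978) and without *HRE1β* OX replicate 2 (adjusted p = 0.0924). The *AtRH17* OX-labelled libraries exceeded *HRE1α* OXs in the same 3 genes, in *NDA1* (1.49-fold, edgeR adjusted p = 5.4e-04) and in *AOX1C*, 5 of 6 in all, where 13.4% of all tested genes were higher and 12.4% lower. *AOX1C* passed the filter on low counts only with the libraries labelled *AtRH17* OX, so its call adds no support to this count. Between the *AtRH17* OX-labelled libraries and *HRE1β* OX, *AOX1A* differed by -0.07 (SE 0.213, edgeR adjusted p = 0.886) and *NDB2* by -0.13 (SE 0.166, edgeR adjusted p = 0.681). *NDA1* alone was called there, 1.39-fold higher in the former (log2 0.47, SE 0.117, edgeR adjusted p = 0.00655), where 7.42% of all tested genes were higher and 6.45% lower. That call was lost without *HRE1β* OX replicate 1 (adjusted p = 0.139) and without either library labelled *AtRH17* OX (adjusted p = 0.0527 and 0.0752).

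The 4 genes of the same families that the rule left out moved in several directions. *NDB1*, the external dehydrogenase known to use NADPH, was at 18.6 and 20.7 CPM in WT and at 16.9 to 23.1 CPM in the lines, and no comparison passed. As a result *NDB2* went from 0.231 and 0.369 times the level of *NDB1* in WT to 0.652 and 0.88 times in the *HRE1β* OX-labelled libraries and 0.78 and 0.811 times in those labelled *AtRH17* OX. *NDC1*, a dehydrogenase found in chloroplasts as well as mitochondria, was 1.43-fold higher in the *AtRH17* OX-labelled libraries, with 14.2 and 15.5 CPM against 10.3 and 10.4 CPM in WT (log2 0.52, SE 0.154, edgeR adjusted p = 0.00996). Without *AtRH17* OX replicate 2 this call was lost (adjusted p = 0.0837). *IM*, which encodes the plastid terminal oxidase, a relative of AOX in the chloroplast, fell by 0.61 on the log2 scale in the *HRE1β* OX-labelled libraries (SE 0.157, edgeR adjusted p = 0.00416), from 16.2 and 14.2 CPM in WT to 9.35 and 10.5 CPM, a call lost without replicate 1 of these (adjusted p = 0.0712). *AOX1A* thus went from 0.289 and 0.349 times the level of *IM* in WT to 1.26 and 2.01 times there. *AOX1B* lies 944 bases upstream of *AOX1A* on the same strand and had 3 and 0 counts in WT, 0 and 0 in *HRE1α* OXs, 13 and 8 in the *HRE1β* OX-labelled libraries and 13 and 12 in those labelled *AtRH17* OX. Its ratio to WT in the last group was 9.03 (95% counting interval 2.76 to 46.7) and lay at the threshold (edgeR adjusted p = 0.047), with 6 of 15 alternatives past it and adjusted p from 0.0253 to 0.245.

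The promoters were searched for motifs, because *NDB2*, *UPOX* and other targets of mitochondrial retrograde signalling are known to hold one bound by NAC factors such as NAC013 and NAC017. It reads CTTG, then 5 unspecified bases, then CAAG or CACG, and it was searched on both strands in the 1000 bases before each annotated start. These windows were not cut at neighbouring genes. One or more matches were found before 4.4% of 27443 protein-coding genes and before 4 of the 10 genes here, *NDA1*, *NDB2*, *NDB3* and *UPOX*. *NDB2* had 2 matches, and 2 or more were found before 0.2% of all genes. Its farther match lay 652 bases before the start, beyond the gap of 218 bases to the next gene upstream. The matches nearest to a start were those of *UPOX* (51 bases), *NDA1* (70 bases) and *NDB2* (79 bases), which share the CAAG form. That form reads the same on both strands, so its matches have no orientation. They are shown with 20 bases on either side, read on the strand of the gene from RefSeq TAIR10.1, with the fixed bases of the motif in capitals.
UPOX, chr2:9254307-9254359, forward strand: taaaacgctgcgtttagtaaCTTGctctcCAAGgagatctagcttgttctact
NDA1, chr1:2204014-2204066, forward strand: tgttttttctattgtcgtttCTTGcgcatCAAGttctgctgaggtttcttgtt
NDB2, chr4:2572328-2572380, forward strand: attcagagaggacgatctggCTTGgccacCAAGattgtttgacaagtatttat
NDB2, chr4:2571755-2571807, forward strand, match on the opposite strand: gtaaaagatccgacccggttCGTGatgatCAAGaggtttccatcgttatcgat
NDB3, chr4:11439600-11439652, reverse strand, match on the opposite strand: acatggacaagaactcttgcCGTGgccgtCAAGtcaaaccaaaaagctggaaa
The motif separated neither the abundant from the scarce genes nor those that rose from the rest. *AOX1A*, which rose, had no match in its window, and *NDB3*, at most 3 counts in a library, had 1. Outside the rule, *AOX1B* had a match 118 bases before its start. The GCC box core GCCGCC, to which ethylene response factors such as HRE1 are known to bind, occurred before 8.4% of all genes and before *AOX1C* alone among the 10. There it lay 520 bases before the start, beyond the gap of 184 bases to the next gene upstream. The W-box cores TTGACC and TTGACT, bound by WRKY factors, occurred before all 10, as before 67.3% of all genes. A match is a description of letters and not evidence of binding.

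**Figure D4:**
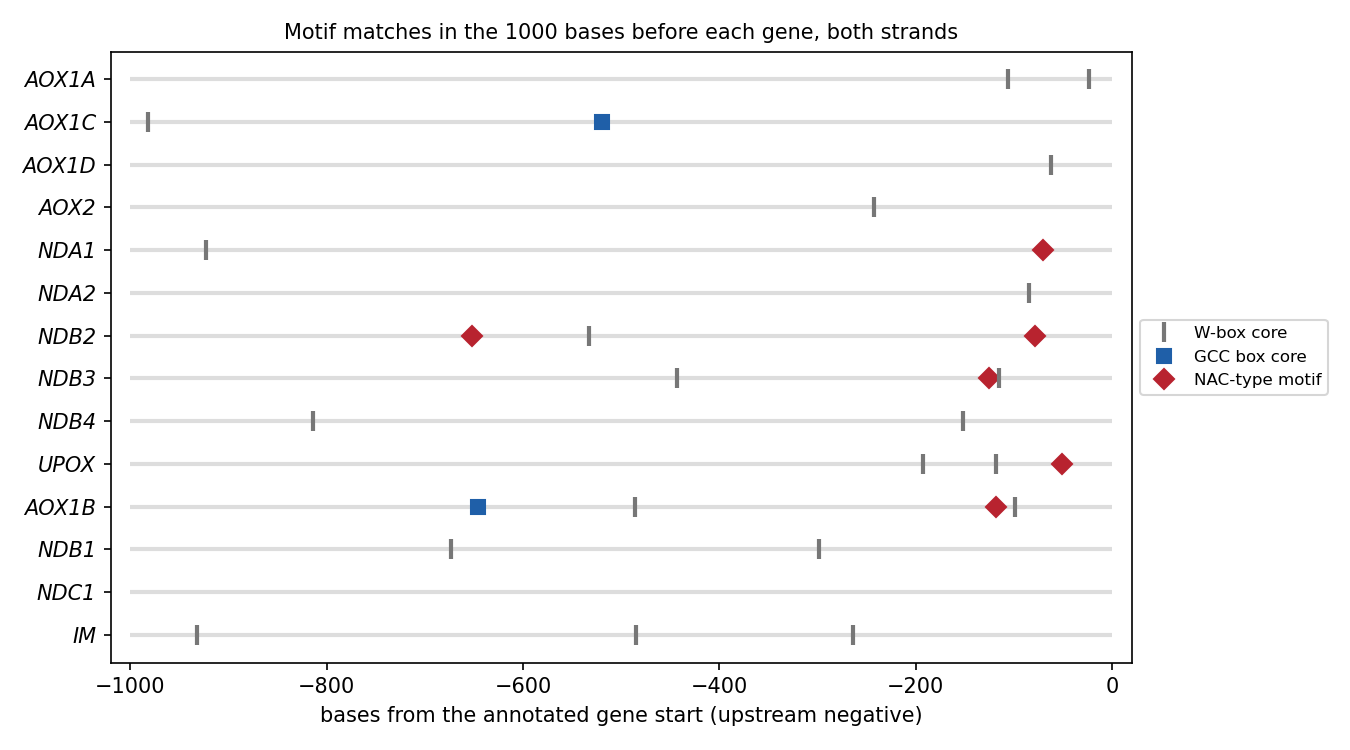
Positions of the motif matches, in bases from the annotated gene start (horizontal axis, upstream negative), before the 10 genes and the 4 family genes outside the rule, which are the last 4 rows. The NAC-type matches of *UPOX*, *NDA1* and *NDB2* lie 51, 70 and 79 bases before the start.

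Most of the tested genes known to rise together with *AOX1A* when mitochondria are impaired were higher in the same libraries. Of 14 such genes 13 were tested. Against WT, 9 rose and 1 fell in the *HRE1β* OX-labelled libraries, and 10 rose and 1 fell in those labelled *AtRH17* OX. In *HRE1α* OXs 0 rose and 1 fell. Of all tested genes, 11.2% rose and 11.6% fell in the first of these comparisons and 15.3% and 15.5% in the second. In the third 1.57% rose and 1.80% fell. The median log2 difference of the 13 genes was 1.35, 1.39 and -0.02 in that order. *AT12CYS-2*, a small cysteine-rich mitochondrial protein gene, went from 6 and 9 counts in WT to 76 and 48 in the *HRE1β* OX-labelled libraries, a ratio of 8.19 (95% counting interval 4.78 to 15.1), and to 177 and 93 in those labelled *AtRH17* OX, a ratio of 19.5 (11.6 to 35.3). The glutathione transferase gene *GSTU24* rose 4.4-fold (edgeR adjusted p = 8.8e-14) and 5.62-fold (edgeR adjusted p = 2.0e-15), its neighbour *GSTU25* 3.29-fold (6.5e-11) and 4.5-fold (2.1e-13), and the transporter gene *DTX3* 8.14-fold (3.4e-07) and 9.83-fold (4.8e-08). *GSTU24* and *GSTU25*, like *DTX3* and *AT2G04070*, are related neighbours among which multiply aligned reads could be shared. *OM66*, the gene of an outer membrane ATPase and a common marker of this response, did not pass (log2 0.63, edgeR adjusted p = 0.155, and log2 0.04, edgeR adjusted p = 0.948). *CRF6*, a cytokinin response factor gene, fell in all 3 comparisons, by 0.49, 0.83 and 0.57 on the log2 scale (edgeR adjusted p = 0.0337 in *HRE1α* OXs, where 10 of 17 alternatives kept the call, 2.5e-05 and 0.00136). Within the *HRE1β* OX-labelled libraries, 12 of the 13 were higher in replicate 2, and within those labelled *AtRH17* OX 0 of 13 were. *AOX1A* was likewise higher in replicate 2 of the former (11.8 and 21.2 CPM) and lower in that of the latter (16.6 and 14.9 CPM). The share over all tested genes was not computed, so these counts are no result about the list. The NAC-type motif lay before 5 of these 14 genes (35.7%). The list was written with earlier results of these data known, so its direction is no independent evidence.

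Transcripts of some factors known to act on *AOX1A* were higher and those of others lower. Of 12 tested, 4 rose and 2 fell in the *HRE1β* OX-labelled libraries, 3 rose and 3 fell in those labelled *AtRH17* OX, and 0 rose and 1 fell in *HRE1α* OXs. Over all tested genes 11.2% rose and 11.6% fell in the first of these comparisons, 15.3% and 15.5% in the second and 1.57% and 1.80% in the third. With 12 genes tested, these counts are too small to be read as a result about the list. *NAC013*, which also belongs to the former list, was at 3.38 and 3.73 CPM in WT and rose by 0.74 (edgeR adjusted p = 0.018) and 0.91 (edgeR adjusted p = 0.0027) on the log2 scale. *NAC017* was at 20.6 and 25.9 CPM in WT and fell by 0.35 in the *AtRH17* OX-labelled libraries (edgeR adjusted p = 0.0472, a call that 6 of 16 alternatives kept). *MYB29*, known as a negative regulator of *AOX1A*, rose 5.08-fold and 3.43-fold (edgeR adjusted p = 9.5e-05 and 0.00183). *CDKE1*, the gene of a Mediator kinase needed for *AOX1A* induction, fell by 0.49 in *HRE1α* OXs (edgeR adjusted p = 0.0147, lost without either *HRE1α* OX library), by 0.59 in the *HRE1β* OX-labelled libraries (edgeR adjusted p = 4.5e-04) and by 0.95 in those labelled *AtRH17* OX (edgeR adjusted p = 3.9e-07). *RCD1*, whose protein binds NAC013 and NAC017, fell by 0.31 (edgeR adjusted p = 0.00261) and 0.22 (edgeR adjusted p = 0.0266) in the latter groups, and 9 of 16 alternatives kept the second of these calls. *NAC053* rose by 0.58 in the *AtRH17* OX-labelled libraries (edgeR adjusted p = 0.00198). *WRKY63*, for which no read was found in WT, had 10 and 17 counts in the *HRE1β* OX-labelled libraries, at least 4.46-fold above the floor of 3 counts in each WT library, and 0 and 3 in those labelled *AtRH17* OX.

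Part of the genes of the respiratory complexes, cytochrome *c* and ATP synthase were higher as well. Among these, the alternative enzymes bypass complexes I, III and IV, but not complex II or ATP synthase. Of 25 nuclear genes of complexes I to IV, cytochrome *c* and ATP synthase, 13 rose in the *HRE1β* OX-labelled libraries, 15 in those labelled *AtRH17* OX and 0 in *HRE1α* OXs, and 0 fell in any, while 12, 10 and all 25 did not pass. Of all tested genes, 11.2%, 15.3% and 1.57% rose in these comparisons. The medians were 0.31, 0.37 and 0.05 on the log2 scale, where those of the 6 alternative pathway genes were 0.65, 1.01 and -0.02. *COX5B-1*, a subunit of complex IV, rose by 0.83 (SE 0.123, edgeR adjusted p = 7.7e-06) and *CYC1-1*, cytochrome *c*1 of complex III, by 0.74 (SE 0.117, edgeR adjusted p = 1.5e-05) in the *HRE1β* OX-labelled libraries. In those labelled *AtRH17* OX the cytochrome *c* genes *CYTC-2* and *CYTC-1* rose by 0.92 (SE 0.109, edgeR adjusted p = 9.1e-08) and 0.65 (SE 0.0895, edgeR adjusted p = 1.2e-06). *ATP2-2*, the ATP synthase gene with the lowest adjusted p in the former group (log2 0.53, edgeR adjusted p = 2.1e-05), belongs to 3 near-identical copies, so its value is uncertain. The other copies, *ATP2-1* (log2 0.38) and *ATP2-3* (log2 0.43), are also among the 13 genes called there. That count may thus hold shared reads.

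Few genes of other routes to and from ubiquinone passed the test. Of 12 genes for electron entry from proline, branched-chain amino acids, glycerol 3-phosphate and ascorbate synthesis and for uncoupling, 1 rose and 2 fell in the *HRE1β* OX-labelled libraries and likewise in those labelled *AtRH17* OX, with medians of -0.01 and -0.05, and 0 rose and 1 fell in *HRE1α* OXs. In the 2 former groups these counts are close to the background in both directions, so they are no result about the list. That background was 11.2% higher and 11.6% lower for the label *HRE1β* OX, and 15.3% and 15.5% for *AtRH17* OX. In *HRE1α* OXs it was 1.57% higher and 1.80% lower, and 1 gene of 12 is too few to be read as a result. *PRODH1*, proline dehydrogenase, was at 116 and 115 CPM in WT and fell by 0.64 in *HRE1α* OXs (edgeR adjusted p = 1.3e-05), by 1.07 in the *HRE1β* OX-labelled libraries (edgeR adjusted p = 1.1e-10) and by 0.78 in those labelled *AtRH17* OX (edgeR adjusted p = 2.7e-08). Its scarce relative *PRODH2* was at 0.675 and 0.684 CPM in WT and rose by 1.31 (edgeR adjusted p = 0.0254, a call that 12 of 17 alternatives kept) and 1.54 (edgeR adjusted p = 0.00626) in the latter groups. *ETFQO*, which passes electrons from amino acid breakdown to ubiquinone, fell by 0.57 (edgeR adjusted p = 0.00103) and 0.43 (edgeR adjusted p = 0.0082).

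**Figure D5:**
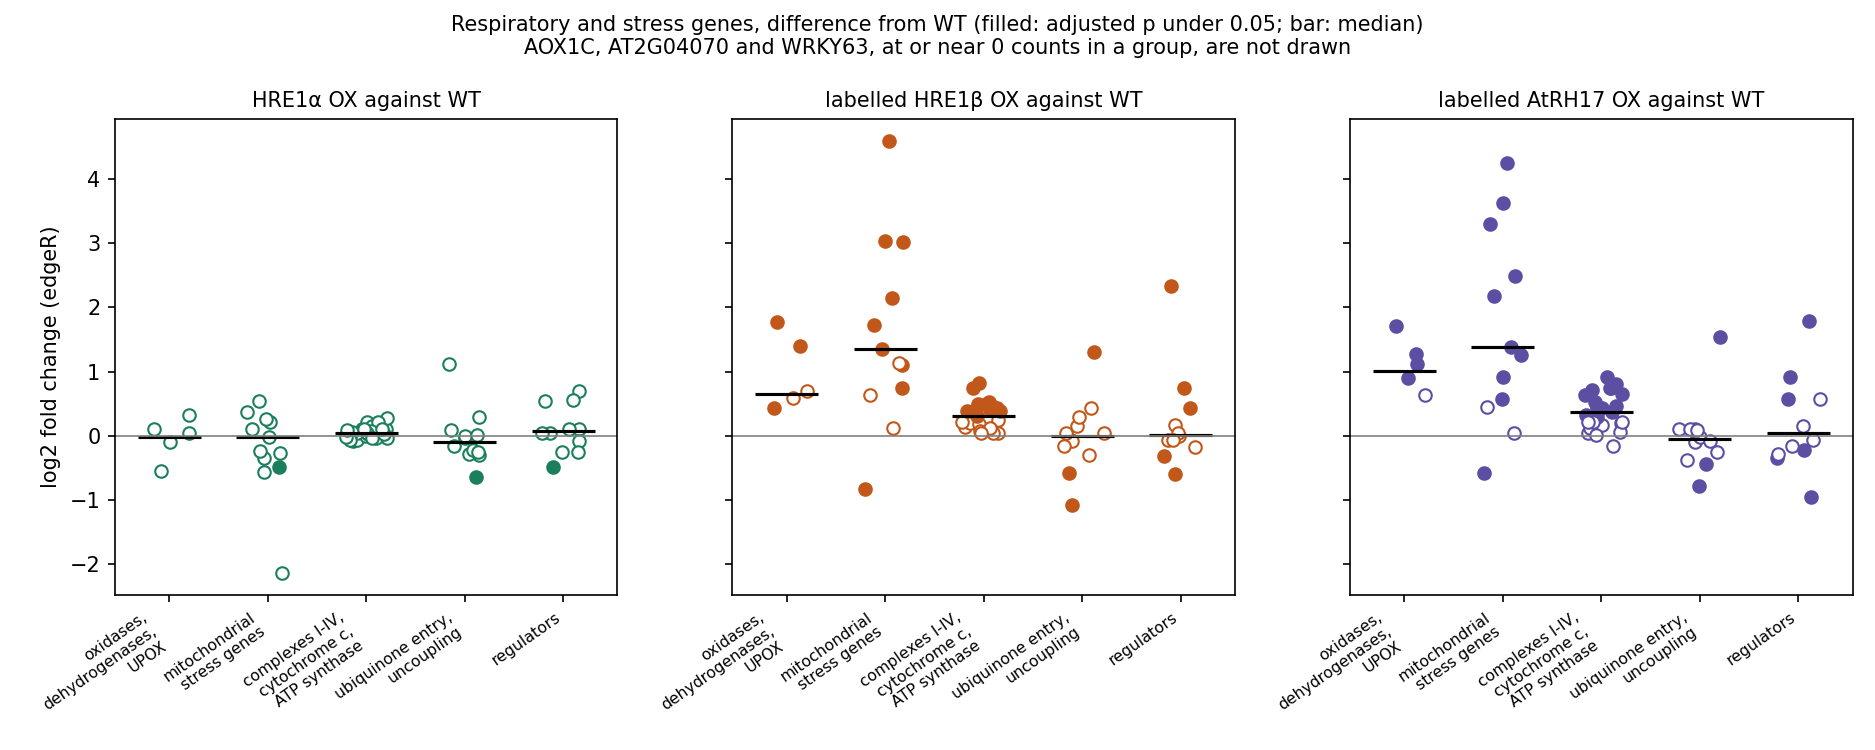
edgeR log2 fold change from WT (vertical axis) of each tested gene in 5 lists, 1 panel per line (filled: adjusted p under 0.05, bar: median of all tested genes of the list). *AOX1C*, *AT2G04070* and *WRKY63*, at or near 0 counts in a group, enter the medians and are not drawn. The medians of the alternative pathway genes are -0.02, 0.65 and 1.01, and those of the mitochondrial stress genes -0.02, 1.35 and 1.39.

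The genes with levels most like those of *AOX1A* and *NDB2* across the 8 libraries were ranked by the root-mean-square (RMS) distance of their centred log2(CPM + 0.1) values, among 14468 others with a mean of at least 5 CPM. Nearest to *AOX1A* were *OPR1*, a 12-oxophytodienoate reductase gene, at 0.228, *CHIL*, a chalcone isomerase-like gene, at 0.261, *CYP72A8* at 0.288, *UGT73B5*, a glucosyltransferase gene, at 0.292, and the sulfotransferase gene *SOT12* of the stress list at 0.304. Nearest to *NDB2* were *PME2* at 0.124, *OPR2*, the neighbour of *OPR1*, at 0.126, *AtVTL5* at 0.135, *AGP13* at 0.146 and *ABCG37* at 0.154. *OPR1* averaged 19.2 CPM in WT, 16.9 in *HRE1α* OXs, 52.3 in the *HRE1β* OX-labelled libraries and 55.2 in those labelled *AtRH17* OX. *NDB2* stood at 0.388 from *AOX1A*, 27th in its order, while *AOX1A* was 416th in the order of *NDB2*. For *AOX1D* the nearest gene was at 0.633, more than any distance named above, with at most 20 counts behind each of its values.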

How the data were processed

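Whole seedlings were profiled by QuantSeq 3′ mRNA sequencing, with 2 libraries in each of 4 groups. The authors aligned the reads with Bowtie2 to TAIR10, counted unique and multiple alignments per gene with Bedtools coverage and deposited these raw counts, 1 library per table. Tool versions and the use of strand are not given in the sources used here. The submitters' processing notes also name edgeR, and the quantile normalization in the paper's methods is not part of the deposited counts.

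Row names were matched to TAIR10.1 loci. Of 33028 rows, 32577 carried a name of 1 locus, 451 an ambiguous or repeated name, and 0 named no gene. After filterByExpr, 22602 genes were fitted in all 8 libraries of the 4 groups together, with TMM factors, by edgeR 4.0.16 (glmQLFit, robust) in R 4.3.3, without covariates. Scarce genes such as *AOX1B*, *AOX1C*, *AT2G04070* and *WRKY63* passed this filter only with libraries of groups where they are high, so their calls are no independent support. p-values were adjusted by Benjamini-Hochberg over all tested genes of a comparison, and a call is an adjusted p under 0.05. SE is the absolute log2 fold change over the square root of F. With 2 libraries against 2, a permutation of single values cannot reach p = 0.05, so none was used. Counting intervals for ratios of summed counts are exact conditional binomial intervals at 95% and cover counting error only. Proteins were compared by global alignment (BLOSUM62, Biopython 1.88).

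Members and lists were chosen with earlier results of these data known. The text names all 10 genes, the overexpressed genes, the family genes outside the rule, up to 3 genes of each other list with the lowest adjusted p in each comparison with WT, and the 5 nearest profiles. *AT12CYS-2*, *OM66*, *NAC013*, *NAC017*, *WRKY63* and *AT2G04070* were named after their values were seen. Alternatives were DESeq2 1.42.0, upper-quartile factors, limma 3.58.1 on quantile-normalized log2(CPM + 1), no filter, a minimum of 10 counts throughout, fits of fewer groups, removal of organelle genes, the replicate number as a block, and omission of single libraries. The tests were tried on simulated data. Figures were drawn with matplotlib 3.10.9. One root marker that the naming rule takes is not reported here.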

Additional observations from a re-analysis of the deposited data

How the results depend on the processing

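The 6 counts of called genes kept within 1.5 times of their value under DESeq2, upper-quartile factors, quantile-normalized values, no filter, a minimum of 10 counts throughout, fits of fewer groups, no organelle genes and a replicate block. When each library was left out in turn, the count ranged from 0 to 1 of 6 for *HRE1α* OXs against WT and from 0 to 1 for the *AtRH17* OX-labelled libraries against those labelled *HRE1β* OX, both through *NDA1*. It ranged from 2 to 3 for the label *HRE1β* OX against WT and against *HRE1α* OXs, and from 3 to 4 for *AtRH17* OX against WT. *AOX1A* and *NDB2* stayed past the threshold against WT in both groups under all alternatives run (17 and 16), with adjusted p up to 8.7e-04. Of 588 member values under an alternative, 576 kept their side of the threshold, 11 lost and 1 gained a call, and 0 calls reversed. Where a call changed, the cause was not tested, beyond the missing library itself.

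The replicate numbers did not pair the libraries: same-numbered libraries deviated from their group means with correlations of -0.00582 to 0.0579 across genes. With the replicate block, the called genes numbered 0, 3 and 4 of 6 against WT, as without it, and 865, 5308 and 7052 of all tested genes in place of 760, 5167 and 6958. Leaving out 1 library moved the count over all genes to between 250 and 1445 for *HRE1α* OXs, and to 3349 at the lowest for the label *HRE1β* OX. Between the lines it moved to 1891 from 3781 for the labels *HRE1β* OX against *HRE1α* OX, to 3538 from 5837 for *AtRH17* OX against *HRE1α* OX and to 1163 from 3135 for *AtRH17* OX against *HRE1β* OX, at the lowest (the first 2 comparisons without *HRE1α* OX replicate 2, the last without the library labelled *AtRH17* OX replicate 2). In these fits the lone library is assumed to vary like the other groups. Depth limits *AOX1D*, *AOX2*, *NDB3* and *NDB4*, with 0 to 22 counts a library.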
